A study of Mus musculus with 12 samples.

Results

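Genes of lipoprotein assembly, remodelling and uptake were followed in the livers of 12 mice. They were the rows of the count table whose symbol is 1 of 31 names: apolipoproteins, lipases and their inhibitors, assembly factors, lipoprotein receptors and cholesterol transporters. The table held 30 of them among 27304 genes, and Apof was not analysed here. All 30 passed the filter on low counts, which left 13641 genes. Per the labels every mouse was Apoe-/-, so the controls also lack apolipoprotein E, and all had 12 weeks on a diet named HFD. The 4 groups of 3 livers were Apoe-/- males, Apoe-/- females, Apoe-/-AhR-/- males and Apoe-/-AhR-/- females. The first pair are called controls here and the other pair Ahr-null. Ahr encodes the aryl hydrocarbon receptor, a ligand-activated transcription factor, and the series asks how it affects the liver. The alleles, the strain and the age at the start of the diet were not given in the sources used here. Each library is labelled as a liver of its own group with no animal number, so p-values measure only how far these samples spread.

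The liver packs triglyceride and cholesterol ester around apolipoprotein B, with the microsomal triglyceride transfer protein as lipid loader, and secretes the particle as VLDL. In the circulation lipoprotein lipase, helped by apolipoprotein C-II and held back by angiopoietin-like proteins, removes triglyceride, and the liver takes the remnants back through receptors that recognise apolipoprotein E. HDL begins as apolipoprotein A-I that accepts cholesterol from the transporter ABCA1, matures through LCAT, and delivers cholesterol ester to the liver through SR-BI, the product of Scarb1. Mice without apolipoprotein E keep remnants in plasma and develop atherosclerosis, which is why they are used as a model of it.

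The library totals ran from 9794253 to 18924880 counts, and 1 count was worth at most 0.109 CPM. CPM, the usual unit of depth-scaled counts, divides each count by the library total, which was scaled by TMM, a correction for differences in composition. Mitochondrially encoded genes took 46.7% to 69.8% of the counts in controls and 30.4% to 59.8% in Ahr-null livers. The TMM factors ran from 0.579 in control female replicate 2 to 1.53 in Ahr-null male replicate 3. The cause of this difference in composition was not tested. Hepatocyte markers, as fits the tissue label, summed to 10510 to 13650 CPM in control males and 13260 to 29270 in Ahr-null males. In females the sums were 13010 to 16140 in controls and 16390 to 60390 in Ahr-null livers, without overlap. Most of each sum was the single gene Alb, with 9169 to 11910 CPM in control females and 12830 to 55130 in Ahr-null females. The sums therefore mainly follow Alb and do not show that the other markers parted the genotypes. With edgeR 0 of the 6 markers passed the genotype test averaged over the sexes. The part of hepatocyte content in the lipoprotein results was not tested. The targeted gene Ahr had 15.4, 25.0 and 20.1 CPM in control males, 24.5, 20.2 and 23.9 in Ahr-null males, 14.7, 19.8 and 12.4 in control females and 19.5, 16.3 and 13.7 in Ahr-null females. The groups overlapped in each sex, and counts over a whole gene do not show the loss of an exon. Cyp1a2, the best known liver target of the receptor, fell by 3.05 ± 0.36 (SE) on the log2 scale in the Ahr-null livers (edgeR adjusted p = 0.00663). Replicate 1 of the control males and replicate 1 of the Ahr-null females stood apart in markers of other tissues. The 10 markers of neurons and glia summed to 251.6 and 405.0 CPM there against 23.2 to 102.9 in the other 10 libraries, and 5 skeletal muscle markers to 48.7 and 31.2 CPM against 2.94 to 7.42. Ahr-null female replicate 1 was the highest or the lowest of the 12 libraries for 56.7% of all tested genes and for 56.7% of the lipoprotein genes. For control male replicate 1 these shares were 16.4% and 6.67%, within the 5.75% to 19.3% and 3.33% to 26.7% of the other 10. Results that rest on these 2 libraries are therefore also given without them, an alternative chosen after seeing the data.

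**Figure D1:**
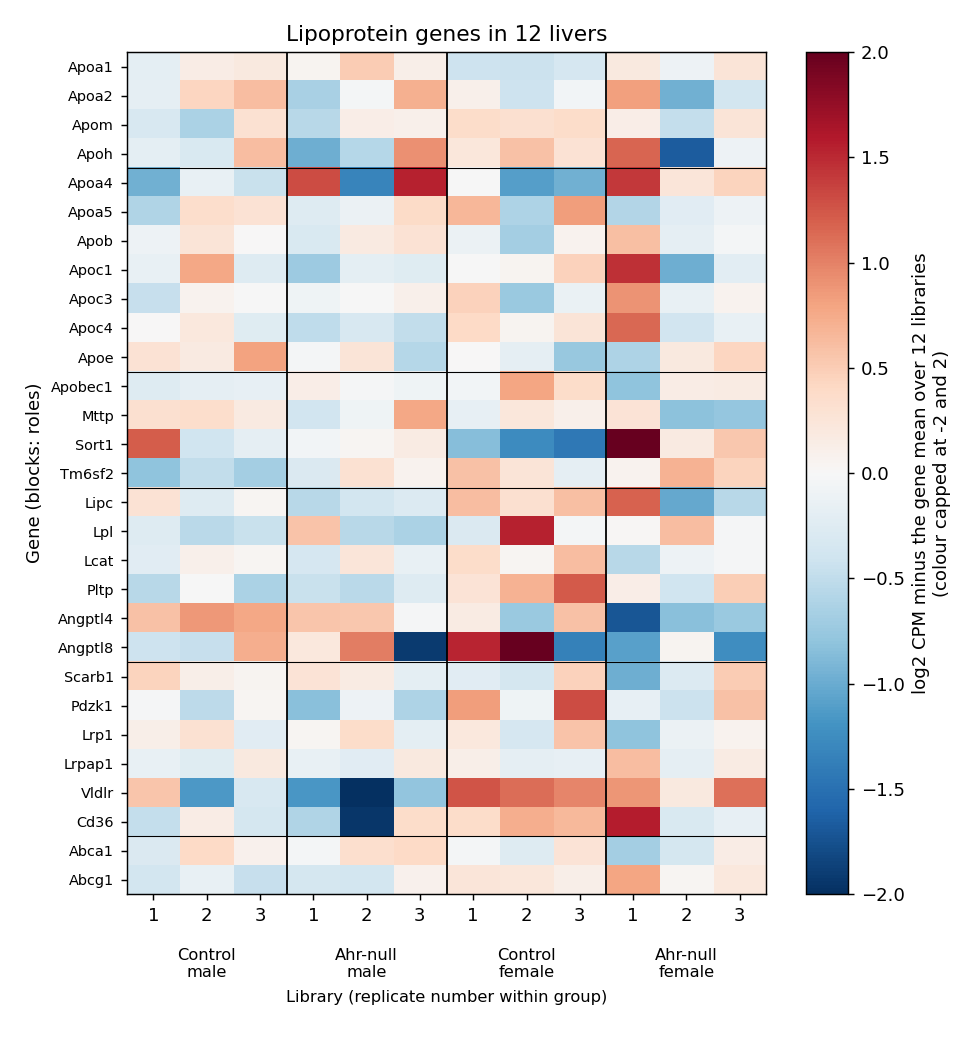
Each cell is the log2 CPM of a gene in 1 library minus that gene's mean over the 12 libraries, with columns grouped by sex and genotype and rows in blocks by role (Apoc2, with a count of 0 in 1 library, is left out, and the colour is capped at -2 and 2). Ahr-null female replicate 1 held the highest level of 11 of the 30 genes and the lowest of 6, more than any other library.

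Apoe itself was transcribed in all 12 livers. It had 150.4, 140.0 and 215.2 CPM in control males, 120.3, 147.8 and 82.7 in Ahr-null males, 124.7, 109.2 and 73.3 in control females and 80.3, 142.0 and 165.8 in Ahr-null females. The groups overlapped between genotypes in each sex, while every control male lay above every control female. The gene (chromosome 7, 19696109 to 19699188, GRCm38) was counted as a whole, so these counts do not test the Apoe label. Its averaged log2 difference between Ahr-null and control livers was -0.09 ± 0.25 (edgeR adjusted p = 0.906).

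Across length-corrected levels the genes spanned a wide range. Levels per length are TPM over nuclear genes, that is counts divided by the exon length of the gene and scaled to the same total in each library, and 7 of the 30 genes had a mean over 1000 TPM. Apoa1, the main HDL protein, led with 44960 ± 12190 TPM (SD, n = 12), followed by Apoc1, an inhibitor of receptor uptake, with 26480 ± 10590 TPM. Apoa2, the next HDL protein, had 21480 ± 6577 TPM, and Apoc3, which slows triglyceride clearance, 13390 ± 3570 TPM. Each of these 4 genes overlapped the next in its range over livers. Apob, the structural protein of VLDL, had 273.7 ± 52.9 TPM. At the other end 5 genes had under 10 TPM, among them Vldlr with 2.02 ± 1.27 TPM and Sort1 with 5.62 ± 3.81 TPM.

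**Figure D2:**
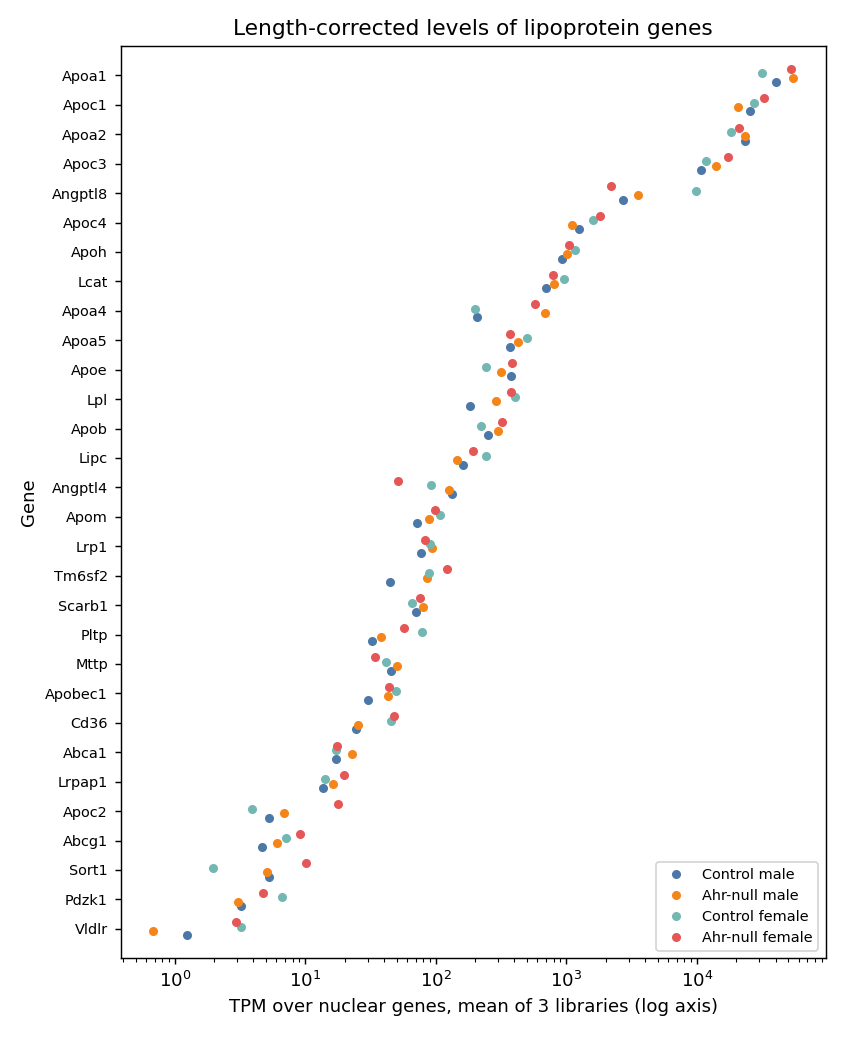
Points are the mean TPM over nuclear genes of 3 libraries in each group, on a log axis, for the 30 genes ordered by their mean over all livers. Apoa1, Apoc1, Apoa2 and Apoc3 lie above all others in every group, and Vldlr, Pdzk1, Sort1, Abcg1 and Apoc2 have means over all livers under 10 TPM.

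No gene of the set passed the genotype test averaged over the sexes. The edgeR quasi-likelihood test called 0 of 30 at an adjusted p under 0.05, against 1.06% of all tested genes. At an unadjusted p under 0.05 there were 5 of 30 (16.7%), against 15.3% of all tested genes, so the share was near the background. DESeq2 called 1 of the 30, Apoa4, and limma on the authors' deposited values called 0. The median log2 difference of the set was -0.12, with 9 genes positive and 21 negative, against 0.04 over all tested genes. With library size alone as the scale 26 of the 30 were positive, since that scale moved the median of all genes from 0.04 to 0.53, and over all genes it called 986 higher and 67 lower in place of 72 and 72. Directions below are relative to the TMM scale. In bulk liver fewer cells of a type and less RNA per cell cannot be told apart.

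Without the 2 libraries that stood apart, 2 of the 30 passed, against 3.14% of the genes tested in that fit. They were Sort1, which was higher without Ahr, and Lipc, which was lower. In that fit 0 of 30 passed in males (0.196% of all genes), 2 in females (1.71%), again Sort1 and Lipc, and 0 for the interaction (0.0291%). Between the sexes 0 passed in controls (0.574%) and 1, Vldlr, in Ahr-null livers (0.799%).

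In males 0 of 30 genes passed the genotype test (0.0367% of all tested genes passed), with 3 at an unadjusted p under 0.05 (5.81% of all genes) and 0 by DESeq2 or limma. In females 0 of 30 passed (0.161% of all genes), with 4 at an unadjusted p under 0.05 (14.4% of all genes), 2 by DESeq2 and 0 by limma. The difference between the genotype effects of the sexes was called for 0 of 30 (0.00733% of all genes), with 1 at an unadjusted p under 0.05 (4.6% of all genes) and 0 by DESeq2 or limma. Ahr-null and control libraries did not overlap for 5 of 30 genes in males (16.7%, against 13.9% of all tested genes). In females this held for 6 of 30 (20.0%, against 19.1%). Angptl4 alone was in both counts, lower in each sex, and 2.9% of all tested genes parted the genotypes in the same direction in both sexes.

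**Figure D3:**
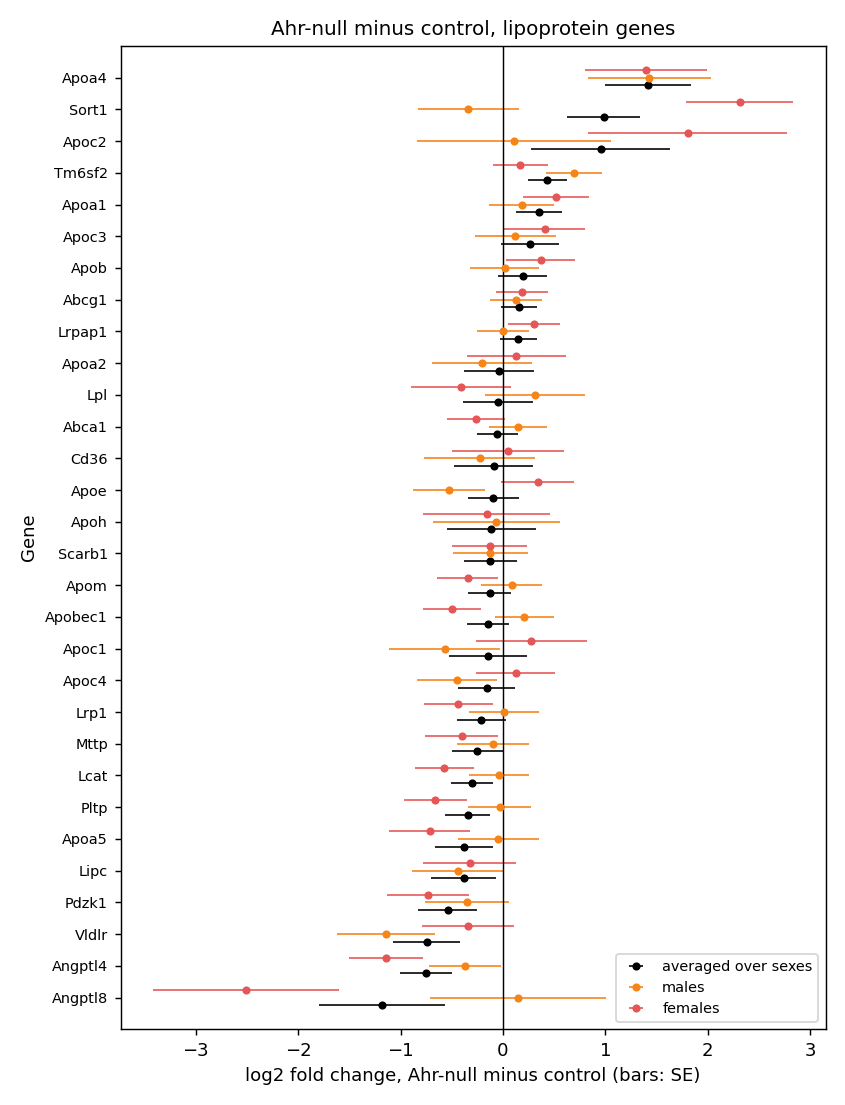
Points are log2 fold changes, Ahr-null minus control, averaged over the sexes (black), in males (orange) and in females (red), with standard errors as bars, for the 30 genes ordered by the averaged value. Apoa4 lies at the top (1.42) and Angptl8 at the bottom (-1.18), and none of these values passed the adjusted threshold.

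Promoters of the genes were read from RefSeq (GRCm38.p6), in windows of 300 bases around the start. Of the 30 genes 22 had at least 1 window. GCGTG, the core of the element bound by the receptor, was searched on both strands (the other strand reads CACGC). It was found in windows of 4 of the 22 genes, Angptl8, Lrpap1, Mttp and Pltp, that is in 4 of their 29 windows (13.8%), and in 32.4% of all 32851 windows in the table. Direct repeats of AGGTCA spaced by 1 base, of the kind bound by PPAR and HNF4 factors, and by 4 bases, of the kind bound by LXR, were searched likewise and were in none of the 22 and in 0.0396% and 0.0152% of all windows. Only exact letters were searched. The repeats are so rare over all windows that finding none here tells little about these promoters. A match is a description of letters and not a bound site. Shown are the bases before the first annotated exon of 4 genes: Apoa4 and Angptl8, with the largest averaged genotype differences, and Pltp and Vldlr, with the smallest p in the sex contrasts. Capitals mark GCGTG, and sequences run 5′ to 3′ on the strand of the gene.
Apoa4, chr9:46240594-46240695, plus strand: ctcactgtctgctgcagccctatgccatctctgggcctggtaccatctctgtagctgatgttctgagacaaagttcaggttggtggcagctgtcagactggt
Angptl8, chr9:21835260-21835509, plus strand: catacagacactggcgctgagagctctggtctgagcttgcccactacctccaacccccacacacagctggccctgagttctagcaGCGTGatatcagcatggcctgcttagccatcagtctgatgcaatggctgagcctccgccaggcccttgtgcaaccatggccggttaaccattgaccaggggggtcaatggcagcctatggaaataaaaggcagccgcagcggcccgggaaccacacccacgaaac
Pltp, chr2:164857712-164857958, minus strand: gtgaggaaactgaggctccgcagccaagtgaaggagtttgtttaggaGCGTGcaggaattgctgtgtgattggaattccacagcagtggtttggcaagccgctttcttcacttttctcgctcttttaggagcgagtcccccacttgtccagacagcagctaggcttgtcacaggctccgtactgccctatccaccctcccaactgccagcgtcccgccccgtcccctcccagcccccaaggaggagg
Vldlr, chr19:27216234-27216483, plus strand: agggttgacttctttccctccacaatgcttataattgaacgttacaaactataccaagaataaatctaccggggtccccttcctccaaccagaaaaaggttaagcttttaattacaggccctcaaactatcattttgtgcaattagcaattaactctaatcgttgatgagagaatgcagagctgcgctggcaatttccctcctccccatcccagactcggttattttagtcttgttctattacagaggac

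None of the 4 HDL apolipoproteins passed the genotype test, and their median averaged difference was -0.08. Apoa1 (chromosome 9, 46228580 to 46230466) had 8777, 11190 and 11480 CPM in control males and 10460, 14330 and 10890 in Ahr-null males. In females it had 7543, 7433 and 7913 CPM in controls and 11480, 9314 and 12040 in Ahr-null livers. The females parted without overlap and the males did not. The averaged log2 difference was 0.35 ± 0.23, with a 95% interval of -0.14 to 0.84 (adjusted p = 0.499). Apom, the HDL carrier of sphingosine-1-phosphate, had 13.4, 10.8 and 20.8 CPM in control males, 11.5, 18.4 and 18.0 in Ahr-null males, 21.5, 21.0 and 21.7 in control females and 18.4, 12.1 and 20.1 in Ahr-null females. Only the females parted, with Ahr-null livers lower, and the averaged difference was -0.13 ± 0.21. Apoa2 and Apoh, a phospholipid-binding plasma protein, had averaged differences of -0.04 ± 0.34 and -0.11 ± 0.44. For Apoh the Ahr-null livers alone spanned 89.1 CPM in female replicate 2 to 632.7 CPM in female replicate 1. Without the latter library the averaged differences were -0.35 ± 0.28 for Apoa2 and -0.55 ± 0.37 for Apoh.

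Among the apolipoproteins of triglyceride-rich particles, Apoa4 had the largest averaged genotype difference of all 30 genes, while in females alone Apoc2, Sort1 and Angptl8 had larger ones. Apoa4 (chromosome 9, 46240696 to 46243459) encodes a protein of chylomicrons and HDL that the mouse liver also makes. It had 55.8, 97.5 and 79.9 CPM in control males and 268.4, 43.5 and 316.6 in Ahr-null males. In females it had 107.9, 50.7 and 55.7 CPM in controls and 289.2, 128.5 and 148.2 in Ahr-null livers. Every Ahr-null female lay above every control female. In males 2 livers lay above the controls, and replicate 2 lay below every control. The averaged log2 difference was 1.42 ± 0.42, a 2.67-fold higher level, with a 95% interval of 0.50 to 2.33 (unadjusted p = 0.00532, edgeR adjusted p = 0.145). It was 1.43 ± 0.60 in males and 1.40 ± 0.60 in females. Without Ahr-null male replicate 2 the gene passed (1.65, adjusted p = 0.0191), and without the 2 libraries that stood apart it was 1.12 ± 0.45 (adjusted p = 0.193). The 5 enterocyte markers summed to 31.4 CPM in replicate 1 of the Ahr-null females and 23.1 in replicate 3 of the Ahr-null males, with 5.82 to 12.8 elsewhere. Those livers had the highest Apoa4 of their groups, while Ahr-null male replicate 1, with 268.4 CPM of Apoa4, had a marker sum of 6.35. Alpi and Sis, 2 of the 5 markers, were at 0 in all 12, so the sums come from the rest of the list. The part of gut tissue in the Apoa4 levels was not tested. GENCODE lists antisense exons across Apoa4 (Gm10680 and Gm47528), and whether counting used the strand is unknown, so the counts of Apoa4 are uncertain to that extent.

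Apoa4 lies in a cluster of 43.3 kb on chromosome 9 with Apoa1, Apoc3 and Apoa5, and its neighbours had smaller differences. Apoc3 had an averaged difference of 0.26 ± 0.28 and Apoa5, an activator of lipoprotein lipase, of -0.38 ± 0.28, against 1.42 for Apoa4. The other cluster, 27.6 kb on chromosome 7, holds Apoc2, Apoc4, Apoc1 and Apoe. There Apoc1 had -0.15 ± 0.38 and Apoc4, a minor VLDL apolipoprotein, -0.16 ± 0.27. In Ahr-null female replicate 1 Apoc1 stood at 9608 CPM and Apoc4 at 1474 CPM, against 1775 to 5934 and 469.3 to 876.9 in the other 11 libraries. Without that library the averaged differences were -0.64 ± 0.27 for Apoc1 (edgeR adjusted p = 0.171) and -0.47 ± 0.19 for Apoc4 (edgeR adjusted p = 0.145). In males Apoc4 parted the genotypes, with 469.3 to 530.9 CPM in Ahr-null livers and 565.2 to 772.6 in controls.

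Apob (chromosome 12, 7977648 to 8016835) lies on the chromosome of Ahr, 27.5 Mb from it. It had 434.9 to 834.0 CPM in the 6 controls and 568.8 to 1056 in the 6 Ahr-null livers, which overlapped. The averaged difference was 0.19 ± 0.24, with a 95% interval of -0.32 to 0.71. Apoc2, the activator of lipoprotein lipase, was counted at 0 to 4.42 CPM, with 0 counts in control male replicate 1 (which allows up to 0.252 CPM, counting error only) and 80 in Ahr-null female replicate 3. The other control males had 29 and 7 counts and the control females 12, 5 and 6. Ahr-null males had 27, 9 and 28 counts, and the other Ahr-null females 5 and 28. Of its 813 exonic bases 646 are shared with the gene model Gm44805 on the same strand, so its level is uncertain. The averaged difference was 0.96 ± 0.68 (adjusted p = 0.545).

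None of the 4 assembly and secretion factors passed the edgeR genotype test with all libraries. Sort1 parted the genotypes in females only, and Tm6sf2 and Apobec1 in males only, with Ahr-null livers higher. Of all tested genes 19.1% parted the genotypes in females and 13.9% in males, in either direction. Sort1 (chromosome 3, 108284082 to 108361511) encodes sortilin, a sorting receptor of the Golgi that binds apolipoprotein B. It had 3.59, 2.73 and 2.41 CPM in control females and 27.1, 7.34 and 9.44 in Ahr-null females. In males it had 14.99, 4.96 and 5.74 CPM in controls and 6.27, 6.67 and 7.30 in Ahr-null livers. The female groups did not overlap and the male groups did, and the highest library of each sex was 1 of the 2 that stood apart. With all libraries the log2 difference was 0.99 ± 0.36 averaged (edgeR adjusted p = 0.208), 2.31 ± 0.53 in females (adjusted p = 0.111, DESeq2 adjusted p = 0.00337) and -0.34 ± 0.49 in males. Without those 2 libraries it was 0.94 ± 0.18 averaged (adjusted p = 0.0149), 1.54 ± 0.25 in females (adjusted p = 0.0157) and 0.35 ± 0.25 in males, so the male value changed its sign. When Ahr-null female replicate 1 alone was left out, neither passed, with 0.60 ± 0.27 averaged (adjusted p = 0.185) and 1.54 ± 0.40 in females (adjusted p = 0.0747). The antisense model Gm12523 shares exonic bases with Sort1.

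Tm6sf2 (chromosome 8, 70072924 to 70080066), a membrane protein needed to load lipid onto VLDL, had 15.9, 19.8 and 17.3 CPM in control males and 22.6, 34.2 and 29.1 in Ahr-null males. In females it had 41.7, 33.0 and 24.6 CPM in controls and 29.0, 44.7 and 37.8 in Ahr-null livers. The males parted and the females overlapped, with an averaged log2 difference of 0.43 ± 0.19 (unadjusted p = 0.0408, adjusted p = 0.299). Mttp, the lipid loader of apolipoprotein B, had -0.25 ± 0.25 and Apobec1, the enzyme that edits Apob mRNA to its short form, -0.14 ± 0.20. In males all Ahr-null livers lay above controls for Apobec1, by a small margin (18.6 to 21.6 against 16.4 to 17.5 CPM).

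All 6 lipases, remodelling enzymes and inhibitors had a negative averaged difference, and none passed the edgeR genotype test with all libraries. Angptl4 (chromosome 17, 33773750 to 33781830), an inhibitor of lipoprotein lipase induced by fasting, had 88.3, 107.0 and 99.7 CPM in control males and 85.7, 85.2 and 57.6 in Ahr-null males. In females it had 65.6, 34.9 and 88.2 CPM in controls and 18.0, 32.7 and 34.9 in Ahr-null livers. Ahr-null levels lay under control levels in each sex, in females by a hair, since 34.91 CPM in control replicate 2 stood above 34.90 in Ahr-null replicate 3. The averaged log2 difference was -0.75 ± 0.25, with a 95% interval of -1.30 to -0.21 (unadjusted p = 0.0106, edgeR adjusted p = 0.181). Within females it was -1.14 ± 0.36 (adjusted p = 0.206), which DESeq2 called (adjusted p = 0.0477).

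Angptl8 (chromosome 9, 21835510 to 21837347), a partner of the angiopoietin-like inhibitors that feeding induces, varied most of all between livers. It had 348.6, 335.9 and 763.9 CPM in control males, 538.8, 940.4 and 122.6 in Ahr-null males, 1327, 3598 and 181.7 in control females and 218.2, 480.4 and 196.6 in Ahr-null females. Control females alone spanned 181.7 to 3598 CPM, which covered every Ahr-null liver except male replicate 3. The averaged log2 difference was -1.18 ± 0.62 (adjusted p = 0.382), -2.51 ± 0.91 in females and 0.15 ± 0.86 in males.

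Lipc (chromosome 9, 70798128 to 70952226), the hepatic lipase that trims HDL and remnants, was described after its values were seen. It had 87.2, 59.3 and 73.2 CPM in control males and 48.3, 54.9 and 58.8 in Ahr-null males. In females it had 108.7, 88.4 and 107.8 CPM in controls and 160.2, 34.9 and 48.4 in Ahr-null livers. Ahr-null male livers all lay below the controls, by a small margin (58.8 against 59.3 CPM), as did 2 of the Ahr-null female livers, while the library with neural transcripts lay above them. With all libraries the averaged difference was -0.38 ± 0.32 (adjusted p = 0.622). Without the 2 libraries that stood apart it was -0.78 ± 0.17 averaged (adjusted p = 0.0261), -1.27 ± 0.25 in females (adjusted p = 0.0295) and -0.28 ± 0.23 in males (adjusted p = 0.871). Leaving out Ahr-null female replicate 1 alone gave -0.85 (adjusted p = 0.0117). The summed hepatocyte markers stood at 60390 CPM in that liver and at 10510 to 29270 CPM elsewhere. Most of the 60390 CPM was the single gene Alb, with 55130 CPM there against 6281 to 22050 in the other livers. The part of hepatocyte content in the Lipc result was not tested.

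Lcat, Pltp and Lpl had smaller averaged genotype differences than Lipc, and none passed with edgeR. Lcat, which esterifies HDL cholesterol, had an averaged difference of -0.31 ± 0.20, and its female groups parted, at 133.6 to 193.5 CPM without Ahr and 202.4 to 303.1 with it. Pltp, which transfers phospholipid between particles, had -0.35 ± 0.22, and Lpl -0.05 ± 0.34. Lpl lay between 344.7 and 823.1 CPM in 11 livers and at 1548 CPM in control female replicate 2. The adipocyte markers summed to 10.7 CPM in that liver, within the 5.24 to 58.8 of the others. Its Kupffer cell and macrophage markers summed to 541.7 CPM, within the 250.3 to 600.0 of the others. Its mitochondrial share of counts, 69.8%, was the highest of all. The source of its Lpl level was not tested.

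**Figure D4:**
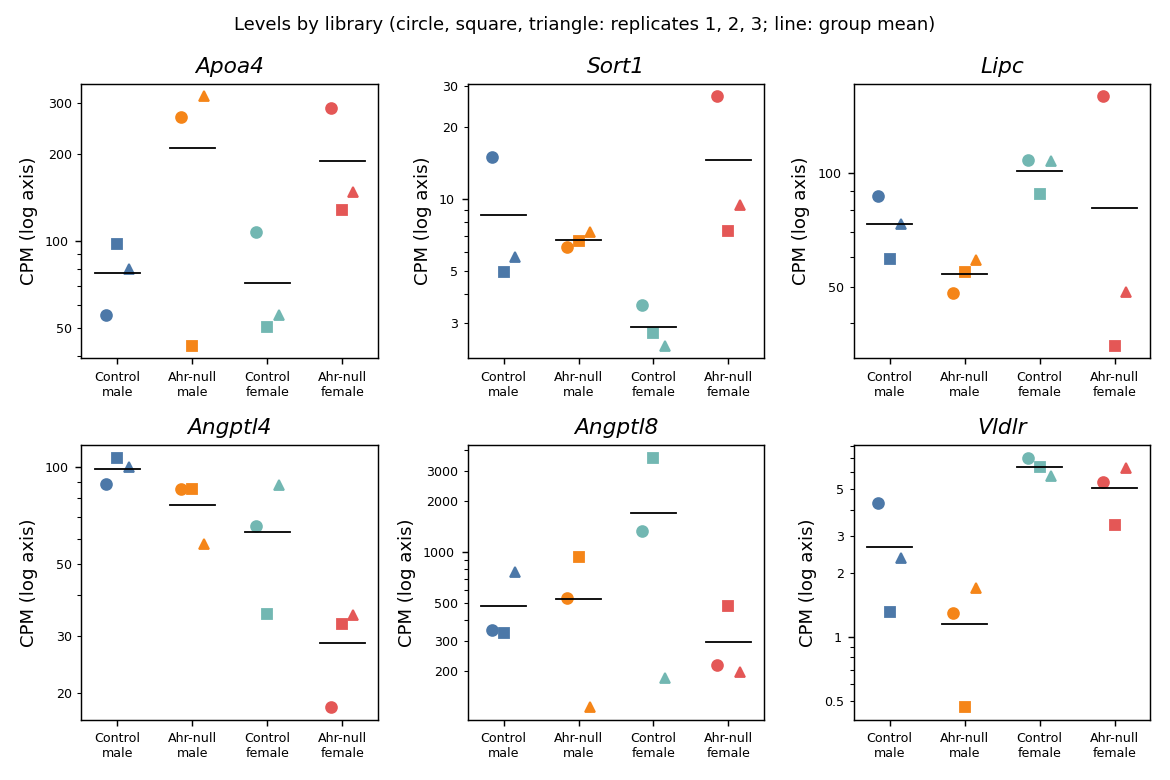
CPM in each of the 12 libraries, on log axes, for Apoa4, Sort1, Lipc, Angptl4, Angptl8 and Vldlr, with circles, squares and triangles for replicates 1, 2 and 3 and a line at the group mean. Ahr-null female replicate 1 (red circle) is the highest for Sort1 (27.1 CPM) and Lipc (160.2 CPM) and the lowest for Angptl4 (18.0 CPM).

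Of the 6 receptors and helpers none passed the edgeR genotype test, and 5 had negative averaged differences. Vldlr (chromosome 19, 27216484 to 27254231), a receptor of triglyceride-rich particles that is scarce in normal liver, had 4.29, 1.32 and 2.36 CPM in control males and 1.30, 0.47 and 1.70 in Ahr-null males. In females it had 7.04, 6.33 and 5.75 CPM in controls and 5.42, 3.37 and 6.30 in Ahr-null livers. Genotypes overlapped in each sex, and the averaged difference was -0.74 ± 0.33 (unadjusted p = 0.0415, adjusted p = 0.302). Pdzk1, the scaffold that holds SR-BI at the hepatocyte surface, had 2.61, 1.86 and 2.74 CPM in control males, 1.499, 2.48 and 1.74 in Ahr-null males, 4.76, 2.51 and 6.58 in control females and 2.39, 1.99 and 3.98 in Ahr-null females. Its groups overlapped, at -0.54 ± 0.29 (adjusted p = 0.394). Scarb1 had -0.13 ± 0.26, Lrp1, a remnant receptor, -0.21 ± 0.24, and its chaperone Lrpap1 0.15 ± 0.18. For Cd36, a fatty acid and oxidised LDL receptor, the value was -0.09 ± 0.39, with 5.51 CPM in Ahr-null male replicate 2 and 62.7 in Ahr-null female replicate 1, and without the latter it was -0.50 ± 0.31.

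The 2 cholesterol efflux transporters had the smallest median standard error of the 6 roles, 0.189, and neither passed the edgeR genotype test. Abca1, which lipidates apolipoprotein A-I, had 28.4, 45.9 and 37.0 CPM in control males, 33.9, 43.7 and 45.7 in Ahr-null males, 33.6, 29.0 and 42.0 in control females and 21.6, 27.1 and 38.4 in Ahr-null females. Abcg1, which passes cholesterol to HDL, had 6.90, 7.98 and 6.44 CPM in control males, 6.94, 6.90 and 9.39 in Ahr-null males, 10.5, 10.4 and 9.66 in control females and 15.4, 9.08 and 10.3 in Ahr-null females. Genotypes overlapped for both genes in each sex. The 95% intervals of the averaged log2 differences were -0.49 to 0.38 for Abca1 and -0.23 to 0.54 for Abcg1.

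Between the sexes 0 of 30 genes passed in control livers (0.352% of all tested genes) and 0 of 30 in Ahr-null livers (0.279%) with edgeR. At an unadjusted p under 0.05 there were 5 (16.7%, against 5.79% of all genes) and 4 (13.3%, against 8.68%). DESeq2 called 1 and 2, and limma 0 and 0. Control males and control females did not overlap for 12 of 30 genes (40.0%, against 18.6% of all tested genes), 4 higher in males (9.38% of all genes) and 8 lower (9.19%). In Ahr-null livers this held for 3 of 30 (10%, against 11.2%). The 12 genes were Apoa1, Apoe, Sort1 and Angptl4, higher in males, and Apom, Apobec1, Tm6sf2, Lipc, Pltp, Vldlr, Cd36 and Abcg1, higher in females. Whether the genotypes differ in these sex differences is the interaction given above, which called 0 of 30.

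Pltp had the smallest p of the set in control livers and was described after its values were seen. It had 15.2, 22.3 and 14.5 CPM in control males against 27.2, 36.3 and 53.0 in control females, and 16.6, 15.5 and 18.8 in Ahr-null males against 24.8, 17.1 and 31.8 in Ahr-null females. The control groups parted and the Ahr-null groups overlapped. The log2 difference, male minus female, was -1.16 ± 0.31 in controls (edgeR adjusted p = 0.274, DESeq2 adjusted p = 0.0394) and -0.53 ± 0.31 in Ahr-null livers. Pltp, Abcg1, Cd36 and Lpl are also macrophage genes, and 8 Kupffer cell and macrophage markers summed to 408.4 to 600.0 CPM in control females against 250.3 to 312.1 in control males. In Ahr-null livers these sums were 316.1 to 385.9 in females and 258.7 to 361.8 in males. The part of these cells in the sex differences was not tested. Pltp shares exonic bases with the antisense gene Ctsa.

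Vldlr and Angptl4 parted the sexes in opposite directions. Male levels of Vldlr lay below female levels in both genotypes, with log2 differences of -1.27 ± 0.46 in controls (adjusted p = 0.669) and -2.07 ± 0.48 in Ahr-null livers (edgeR adjusted p = 0.140, DESeq2 adjusted p = 0.00697). Without the 2 libraries that stood apart the latter was -1.98 ± 0.42 and passed with edgeR (adjusted p = 0.0482). Angptl4 was higher in males in both genotypes, by 0.64 ± 0.36 in controls (adjusted p = 0.925) and 1.41 ± 0.36 in Ahr-null livers (edgeR adjusted p = 0.189, DESeq2 adjusted p = 0.00728). Both held without overlap of the sexes in each genotype. For Angptl4 in controls the margin was tiny, with 88.32 CPM in male replicate 1 and 88.17 in female replicate 3.

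**Figure D5:**
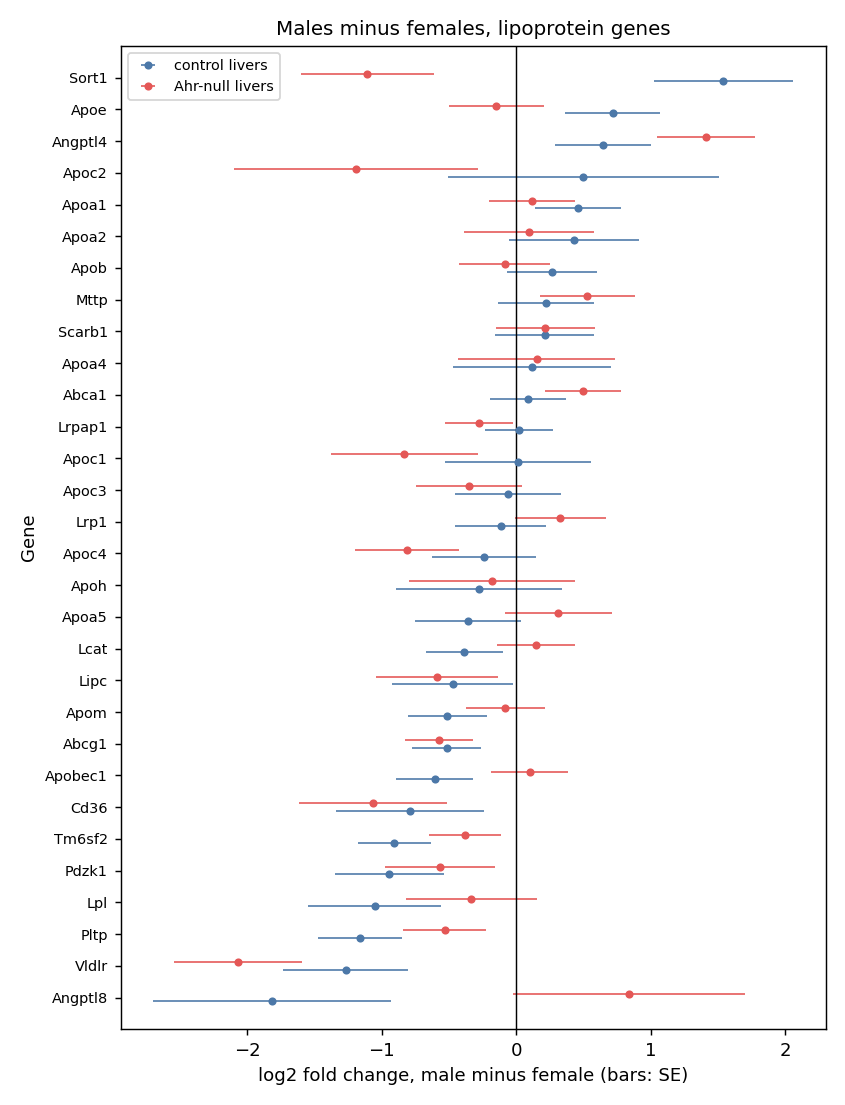
Points are log2 fold changes, male minus female, in control (blue) and Ahr-null livers (red), with standard errors as bars, ordered by the value in controls. Vldlr is negative in both (-1.27 and -2.07), Angptl4 is positive in both (0.64 and 1.41), and Sort1 changes side (1.54 and -1.11).

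Other genes of the same pathway were read from 4 further lists with 54 names, of which 51 were tested. None passed in any of the 6 contrasts with edgeR, and 10 of 51 had an unadjusted p under 0.05 in the averaged genotype contrast, where 15.3% of all tested genes did. Of 14 other receptors and clearance genes, Lsr, the lipolysis-stimulated lipoprotein receptor, had an averaged log2 difference of 0.90 ± 0.24 (adjusted p = 0.100), and Sdc1, a heparan sulphate proteoglycan that captures remnants, 1.23 ± 0.37 (adjusted p = 0.149). Of 10 assembly and export genes, P4hb, protein disulphide isomerase and the small subunit of the triglyceride transfer complex, had 0.97 ± 0.33, and Dgat2, a triglyceride synthase, -0.56 ± 0.20. Among 15 HDL and sterol transport genes the smallest p belonged to Saa4, a constitutive HDL protein (-0.91 ± 0.30), and Nceh1, a cholesterol ester hydrolase (-0.49 ± 0.22). The 12 transcription factors had a median of -0.24, with Srebf2, the regulator of sterol synthesis, at 0.52 ± 0.17 and Ppara, the fatty acid sensor, at -0.49 ± 0.19 (adjusted p = 0.174 and 0.235).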

How the data were processed

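Total RNA of 12 livers was sequenced. The submitters' processing notes name STAR 2.7.8, DESeq2 1.28.1, the trimmer Trim Galore 0.6.5 and the quality tool FastQC 0.11.8, and GRCm38 as the genome build. How reads were assigned to genes, with which annotation and strand rule, was not given in the sources used here. GENCODE lists antisense exons across Apoa4, Apoa5, Apoh, Mttp, Pdzk1, Pltp and Sort1, so their counts are uncertain to that extent. The authors deposited raw counts per gene and, in a separate table, transformed values that behave like log2 levels. Replicate numbers follow accession order and pair nothing.

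The test was edgeR 4.0.16, under R 4.3.3, on the counts (filterByExpr by group, TMM, robust quasi-likelihood fit with 4 group means over 12 libraries, 8 residual degrees of freedom, two-sided). Calls required a p under 0.05 after Benjamini-Hochberg adjustment over all 13641 tested genes. Differences are on the log2 scale with standard errors, and the 95% intervals use the t distribution of the fit. DESeq2 1.42.0 and limma 3.58.1 were alternatives. Replicate pairs differed by a chi-square per degree of freedom of 22.2 to 248, so none was merged. Gene positions and exon lengths come from GENCODE M21, matched for 27225 genes. On simulated counts for the averaged genotype contrast over 13641 genes the procedure called 97 of 100 genes changed by a log2 of 2 and 100 of 100 changed by 3. It also called 8 unchanged genes. Smaller changes and libraries that stand apart were not simulated. These rates therefore do not tell how often differences of the size seen in the set, at most 1.42 averaged, would be called.

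The genes and lists were chosen with earlier results of these data known. In each role with no call the 2 genes with the smallest averaged p were given by library, as were Apoe and Ahr, and of each further list the genes called in a genotype contrast or else the 2 with the smallest p. Lipc and Pltp were added after their values were seen.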

Additional observations from a re-analysis of the deposited data

Results flagged for a closer look

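The sex difference of Sort1 ran in opposite directions in the 2 genotypes, with no overlap of libraries in either. Control males (14.99, 4.96 and 5.74 CPM) lay above control females (3.59, 2.73 and 2.41), and Ahr-null males (6.27, 6.67 and 7.30) lay below Ahr-null females (27.1, 7.34 and 9.44). The margin in Ahr-null livers was small, from 7.302 to 7.337 CPM. The interaction, the male minus the female genotype effect, was -2.65 ± 0.72 on the log2 scale with an unadjusted p = 0.00275, and it did not pass over all genes (edgeR adjusted p = 0.836). When both libraries rich in neural transcripts were omitted, it was -1.19 ± 0.36 (adjusted p = 0.608). The sex difference, male minus female, was then 0.88 ± 0.26 in controls and -0.31 ± 0.24 in Ahr-null livers. With all libraries these were 1.54 ± 0.52 and -1.11 ± 0.49, so the reversed side in Ahr-null livers rested largely on female replicate 1. The part of neural RNA, or of RNA from other cell types, in this pattern was not tested beyond that omission.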

How the results depend on the processing

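No paired analysis was possible because the labels carry no replicate numbers shared between groups. Among the recomputed values of single lipoprotein genes 3402 kept their side of the threshold of the edgeR test with TMM scaling and all libraries, which called none of them, and 18 newly passed. RLE scaling, leaving out mitochondrially encoded genes and omitting the low-count filter kept 0 lipoprotein genes called in every contrast. With library size alone 3 were called in the averaged genotype contrast (Apoa4, Sort1 and Tm6sf2) and 1 in females, and over all genes 1053 were called averaged, 12 in males, 117 in females and 3 for the interaction. DESeq2 called 1, 0, 2 and 0 lipoprotein genes in these contrasts and 1 and 2 between the sexes in control and Ahr-null livers, with 582, 86, 445, 23, 139 and 210 genes in all. Limma on the deposited values called 9 genes in males, 45 in females and 4 for the interaction. Without the 2 libraries with neural transcripts 2, 0, 2 and 0 lipoprotein genes were called for genotype and 0 and 1 between the sexes, with 432, 27, 235, 4, 79 and 110 genes in all. The main counts over all genes were 144, 5, 22, 1, 48 and 38. Leaving out 1 library at a time gave 6 to 663 genes averaged, 0 to 57 in males, 3 to 153 in females, 0 to 2 for the interaction, 19 to 101 between sexes in controls and 11 to 90 in Ahr-null livers. The lipoprotein count then ran from 0 to 1 averaged and in females, and was 0 in the other 4 contrasts. The cause of these shifts was not tested. With 3 livers a group the median standard error of the averaged log2 difference was 0.27 for the set, which limits what could be called.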

Other observations

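Angptl8 ranged over 29.4-fold across the 12 livers, from 122.6 to 3598 CPM, the widest range of the 29 genes with counts in every library. The next was Vldlr with 15.1-fold, and the narrowest was Lrpap1 with 1.80-fold. The 30 genes took 3.58% to 6.38% of the counts outside the mitochondrially encoded genes, with the lowest share in control male replicate 1 and the highest in Ahr-null female replicate 1.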
